A study of Mus musculus with 10 samples.

Results

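The genes described are the nucleus-encoded subunits of the mitochondrial respiratory chain and ATP synthase, measured in livers with and without the glucagon receptor gene Gcgr. Members were the array's genes whose names begin with Nduf, Uqcr, Atp5 or Cox4 to Cox8, together with Sdha, Sdhb, Sdhc and Sdhd. This took in 113 probes of the 41174 on the array and 82 genes, and where a gene had several probes the one brightest in Cy5 on average was taken. Of these, 79 are counted as subunits: 36 of complex I, 4 of complex II, 7 of complex III, 17 of complex IV and 15 of complex V. The complex was taken from the name alone, which puts Ndufa4 under complex I and Cox7a2l under complex IV. The other 3 of the 82 genes share only the name. Ndufaf1 is an assembly factor of complex I, Cox4nb (now Emc8) belongs to the endoplasmic reticulum membrane complex, and Atp5s (now Dmac2l) is a coupling protein not counted here as a subunit. The testis form Cox8c was not well above background on any of the 10 arrays, so 81 members, among them 78 subunits, were tested within a fit over 18912 genes.

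The study compared livers of 5 wild-type mice (WT, genotype wt/wt, 3 males and 2 females) with those of 5 mice without the receptor (KO, GCGR ko/ko, 2 males and 3 females). Liver RNA was labelled with Cy5 and hybridised on 2-colour Agilent arrays against a Cy3-labelled universal mouse reference RNA, with no dye swaps. Each value is therefore a log2 ratio of liver over reference, and a difference between groups is a difference of such ratios. Strain, age, feeding state and the way the allele was made are not given in the sources used here. Gcgr itself fell by 7.66 on the log2 scale in the KO livers (SE 0.08), with groups that did not overlap.

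The respiratory chain carries electrons from NADH, taken up by complex I, and from succinate, taken up by complex II, through ubiquinone to complex III and then by cytochrome c to complex IV, where oxygen is reduced. Complexes I, III and IV pump protons, and complex V, the ATP synthase, makes ATP as the protons return. Complex II is encoded wholly in the nucleus, whereas the other complexes also hold subunits of the mitochondrial genome. Glucagon acting on hepatocytes is known to raise hepatic respiration and gluconeogenesis, which draws on the ATP made there.

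Many nuclear genes of the chain are known to be driven by the factors NRF1, GABP (NRF2), YY1 and ERR alpha. Promoter windows of 300 bases, from 250 before to 50 after the transcription start, were available for 65 of the 79 subunits in RefSeq's table (build GRCm38.p6). The NRF1 motif, 10 letters with any base at the fifth place (GCGCATGCGC and GCGCTTGCGC are forms of it shown in capitals further on, and GCGCAGGCGC is a form read from the other strand), was searched with the others on both strands and stood in 17 of these 65 subunits (26.2%), beside 5.19% of 27025 genes of the table and 7.17% of its 17492 protein-coding genes. The YY1 motif stood in 5 subunits (7.69%), beside 0.995% of all genes. The letters CCGGAAGT (GABP) stood in 5 (7.69%), beside 4.31%, and TCAAGGTCA (ERR) in 2 (3.08%), beside 0.466%. Among protein-coding genes the shares were 1.41% for YY1, 5.69% for GABP and 0.377% for ERR. No pair of these motifs shares its letters, and a match describes the letters in the window, not a bound site. The windows of 19 subunits overlapped that of another gene, such as Sdha with Ccdc127, Atp5j with Gabpa and Ndufb3 with Fam126b.

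The stretches below run from 150 bases before to 30 bases at and after the start, 5′ to 3′ on the gene's strand, from RefSeq build GRCm38.p6, and capitals mark a motif on either strand. Ndufs5 (complex I) and Cox7c (complex IV) are shown because they had the highest KO minus WT difference of their complexes. Atp5s is shown because it was the only member to pass for genotype, and Uqcr as a complex III gene with the GABP letters. Ndufb4 holds the NRF1 letters at more than 1 place, Atp5g2 holds them reading alike on both strands, and Atp5g3 holds the NRF1 and ERR letters together. Cox7c and Atp5s held none of the 4 motifs in their windows.
Ndufs5 promoter (chr4:123718157-123718336, strand minus): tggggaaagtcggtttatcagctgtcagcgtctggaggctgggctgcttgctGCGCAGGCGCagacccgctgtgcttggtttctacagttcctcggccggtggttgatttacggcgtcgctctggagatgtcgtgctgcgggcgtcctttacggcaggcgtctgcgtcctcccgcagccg
Ndufb4 promoter (chr16:37654339-37654518, strand minus): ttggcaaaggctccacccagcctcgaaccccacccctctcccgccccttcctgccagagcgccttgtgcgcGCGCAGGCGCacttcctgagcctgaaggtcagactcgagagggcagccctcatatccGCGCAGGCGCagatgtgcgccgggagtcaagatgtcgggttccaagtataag
Uqcr (RefSeq Uqcr11) promoter (chr10:80406792-80406971, strand minus): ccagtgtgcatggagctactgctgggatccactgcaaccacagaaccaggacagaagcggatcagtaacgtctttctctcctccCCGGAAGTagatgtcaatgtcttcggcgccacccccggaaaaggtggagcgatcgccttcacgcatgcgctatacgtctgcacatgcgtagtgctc
Cox7c promoter (chr13:86046766-86046945, strand minus): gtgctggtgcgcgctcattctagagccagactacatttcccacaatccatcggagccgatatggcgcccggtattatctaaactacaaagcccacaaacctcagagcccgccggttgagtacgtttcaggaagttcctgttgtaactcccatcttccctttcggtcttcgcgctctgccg
Atp5g2 promoter (chr15:102671018-102671197, strand minus): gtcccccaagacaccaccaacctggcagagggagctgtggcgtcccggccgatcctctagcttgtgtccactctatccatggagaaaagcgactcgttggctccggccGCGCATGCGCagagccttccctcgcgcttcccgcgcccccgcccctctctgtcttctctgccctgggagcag
Atp5g3 promoter (chr2:73911297-73911476, strand minus): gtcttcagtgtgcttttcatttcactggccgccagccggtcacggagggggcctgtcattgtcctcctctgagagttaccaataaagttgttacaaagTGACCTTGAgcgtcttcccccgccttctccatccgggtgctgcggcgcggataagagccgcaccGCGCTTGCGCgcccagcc
Atp5s (RefSeq Dmac2l) promoter (chr12:69724795-69724974, strand plus): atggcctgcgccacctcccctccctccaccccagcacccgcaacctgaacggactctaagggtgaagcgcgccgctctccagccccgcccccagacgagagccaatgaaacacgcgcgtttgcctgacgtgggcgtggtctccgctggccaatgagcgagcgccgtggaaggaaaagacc

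RNA of most subunits stood above the reference. The mean ratio was above 0 for all 36 complex I, all 4 complex II and all 7 complex III genes, for 10 of 16 complex IV genes and for 14 of 15 complex V genes. This made 71 of 78 subunits (91%), beside 56.8% of all genes tested. Among those above the reference was Sdha, the flavoprotein of succinate dehydrogenase, with a mean log2 ratio of 2.92 ± 0.15 in WT and 2.95 ± 0.10 in KO livers (SD, n = 5 each). Among those below it was the heart and skeletal muscle form Cox6a2, at -3.16 ± 0.14 in WT and -3.12 ± 0.08 in KO livers. With no dye swaps these levels also carry whatever bias a probe has between the dyes. In differences between groups such a bias cancels only where it is the same on every array, which was not tested. None of the members' chosen spots was saturated in either channel, and 76 of the 78 subunits tested were well above background on all arrays.

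No subunit passed the test for genotype. With limma, a fit with sex as a covariate and Benjamini-Hochberg adjustment over all genes, 0 of 78 subunits rose and 0 fell at an adjusted p under 0.05, beside 6% of all 18912 genes (549 rose, 2.9%, and 585 fell, 3.09%). At an unadjusted p under 0.05 the count was 7 of 78 (8.97%), beside 20.9% of all genes. The subunits' log2 fold changes ran from -0.22 to 0.31 with a median of 0.07, beside -0.003 for all genes, and 55 of 78 (70.5%) were above 0, beside 49.3%. That median was 0.01 both with the scanner's own LogRatio and with the Cy5 channel alone, and it turned negative when slide was fitted as a block (-0.02) and on slides 1 and 2 alone (-0.04), as described further on. Slide 1 is the only slide with both genotypes in 1 sex, males (KO 1 against WT 1 and WT 2). Values called slide 1 males below are that comparison, with no test. Slides 1 and 2 hold no female WT liver, so the difference on slides 1 and 2 alone is this same comparison, with 1 KO liver. A slide block compares the genotypes on slides 1 and 3 alone, since slide 2 holds no WT liver and slide 4 no KO liver.

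In the fit without a slide term the differences were bounded closely. Its intervals do not take in the differences between slides described further on. For 74 of 78 subunits (94.9%) the whole 95% interval lay within 0.5 of 0 on the log2 scale, a change of 1.41 times either way, beside 84.1% of all genes. The exceptions, named after their values were seen, were Cox6a1, Cox7c, Ndufb9 and Uqcrc2, each with an upper bound past 0.5. Over all subunits the lowest bound was -0.45 and the highest 0.67. The scatter between livers around the fit was ordinary, with a median residual SD of 0.131 for subunits and 0.138 for all genes. The share of all calls that were higher was 48.4%, but 72.2% of the 281 calls made with median centring in place of loess and 58.7% of the 339 made when outlier spots were removed only after background correction, and no subunit was called in either. Leaving in the spots marked only for an uneven local background, which were removed after the data were seen, gave 344 calls, 59% of them higher, and none of a subunit.

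**Figure D1:**
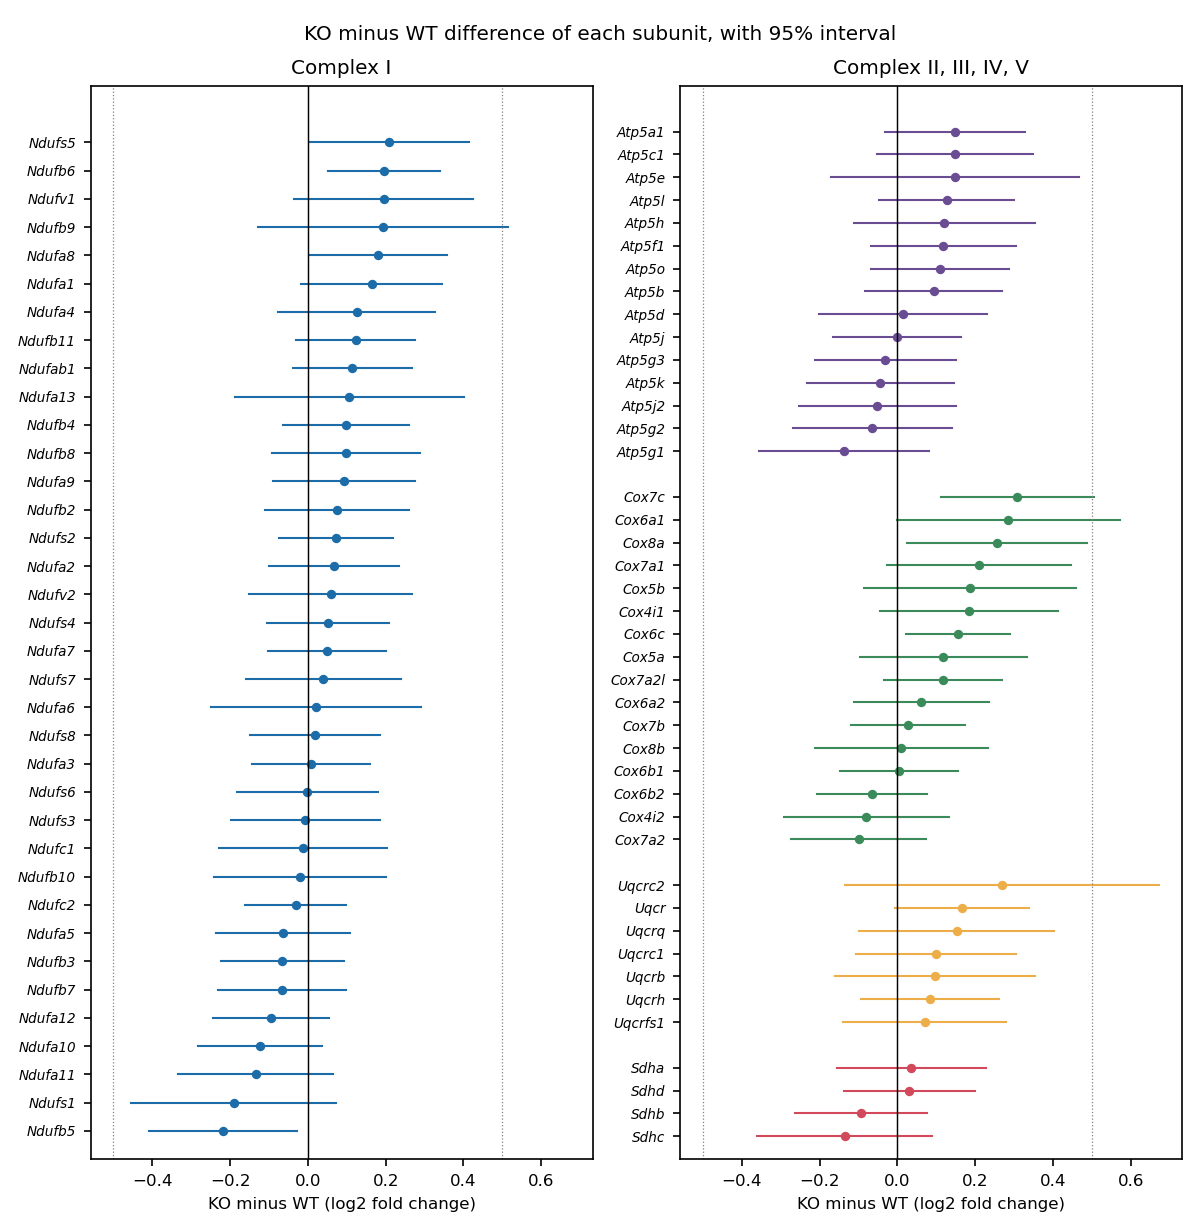
KO minus WT difference of each of the 78 tested subunits on the log2 scale (x axis), with points for the estimate and lines for its 95% interval, coloured by complex, and dotted lines at 0.5 either side of 0. In this fit, without a slide term, most intervals span 0 and 74 of 78 stay between the dotted lines. The longest reaches 0.67 (Uqcrc2).

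Complex I takes electrons from NADH. Of its 36 genes 23 had a difference above 0 and 13 below, with a median of 0.05, which turned to -0.02 with the Cy5 channel alone. Within slide 1 (male KO 1 and female KO 2 against the males WT 1 and WT 2, without a sex term) only 11 of 36 were above 0. With slide as a block 16 of 36 were. The highest was Ndufs5, an accessory subunit, whose ratios, listed here and hereafter from liver 1 to liver 5, were 0.75, 0.76, 0.34, 0.40 and 0.55 in WT. They were 0.73, 0.74, 0.81, 0.85 and 0.62 in KO livers. The groups overlapped, with WT 3 and WT 4 lowest. Its log2 fold change was 0.21 (SE 0.09, adjusted p = 0.227). In slide 1 males it was -0.02, and a slide block brought it to 0.08 (adjusted p = 0.565). The lowest was Ndufb5, a membrane arm subunit, at 1.56, 1.59, 1.83, 1.54 and 1.75 in WT and 1.45, 1.59, 1.57, 1.54 and 1.18 in KO livers, with KO 5 lowest and the rest overlapping (-0.22, SE 0.09, adjusted p = 0.175). Both have 1 probe, on mm7 chromosomes 4 (123157395 to 123157454) and 3 (32560081 to 32560140).

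Ndufb6, an accessory subunit of the membrane arm, and Cox6c of complex IV were the only subunits whose KO and WT livers did not overlap, and they are named after their values were seen. That is 2 of 78 with KO above WT (2.56%), beside 2.97% of all genes, and none with KO below, beside 3.07%. Ndufb6 stood at 0.84, 0.82, 0.74, 0.61 and 0.75 in WT and 0.95, 0.91, 0.996, 0.95 and 0.88 in KO livers. The difference was 0.20 (SE 0.07, adjusted p = 0.108). It was 0.12 in slide 1 males and 0.14 with slide as a block (adjusted p = 0.291). Cox6c stood at 0.67, 0.73, 0.64, 0.57 and 0.71 in WT and 0.87, 0.76, 0.81, 0.86 and 0.76 in KO livers (0.16, SE 0.06, adjusted p = 0.165). It differed by 0.17 in slide 1 males and 0.12 with slide as a block (adjusted p = 0.333). Neither passed for genotype.

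Complex II, succinate dehydrogenase, also serves the citric acid cycle. Its genes split evenly, with Sdha (0.04) and Sdhd (0.03) above 0 and Sdhb (-0.09) and Sdhc (-0.14) below, and a median of -0.03, which turned to 0.01 both with median centring and with outlier spots removed only after background correction. Sdha, the flavin-binding subunit, stood at 2.88, 3.05, 2.94, 2.69 and 3.06 in WT and 2.88, 2.86, 3.04, 3.07 and 2.90 in KO livers (SE 0.09, adjusted p = 0.865), so that the KO livers lay inside or just at the top of the WT range. Sdhc, a membrane anchor, stood at 0.86, 0.92, 1.23, 1.17 and 1.33 in WT and 0.95, 0.94, 0.83, 1.06 and 1.09 in KO livers. The highest were WT 3, WT 4 and WT 5, and the fitted difference had an SE of 0.10 and an adjusted p of 0.51. Sdhc differed by 0.06 in slide 1 males and by -0.0009 with slide as a block (adjusted p = 0.997).

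Complex III passes electrons from ubiquinol to cytochrome c. All 7 of its genes had a difference above 0 in the fit without slide, with a median of 0.10. Only 1 of 7 was above 0 within slide 1, and 4 of 7 were with slide as a block. The lowest was Uqcrfs1, the Rieske iron-sulphur protein, at 1.84, 1.73, 1.68, 1.36 and 1.44 in WT and 1.72, 1.68, 1.73, 1.62 and 1.58 in KO livers (0.07, SE 0.10, adjusted p = 0.743), so no gene of the complex was below 0. The highest was Uqcrc2, a core protein, at 1.30, 1.17, 0.91, 1.61 and 0.60 in WT and 1.24, 1.26, 1.26, 1.35 and 1.83 in KO livers. WT livers spread over more than 1 log2 unit and 4 of the KO livers lay inside their range, with KO 5 above it. Its log2 fold change of 0.27 (SE 0.18, adjusted p = 0.457) had the widest interval of the subunits, and was 0.10 without KO 5, 0.15 without WT 5 and 0.46 without WT 4.

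Complex IV, cytochrome c oxidase, had the highest median of the complexes in the fit of all livers without slide, 0.12. In that fit 13 of 16 genes were above 0, but only 5 of 16 within slide 1. With slide as a block 8 of 16 were above 0, and the median was -0.0003. Cox7c, a small accessory subunit, had the largest difference of all subunits in the fit without slide. It stood at -0.74, -0.70, -1.07, -1.13 and -0.97 in WT and -0.60, -0.72, -0.63, -0.52 and -0.72 in KO livers. WT 1 and WT 2, from slide 1, lay among the KO livers, and the WT livers of slides 3 and 4 lay below. The log2 fold change was 0.31 (SE 0.09, adjusted p = 0.0696), and it was 0.12 in slide 1 males and 0.17 with slide as a block (adjusted p = 0.201). It passed when KO 5 was left out (0.37, adjusted p = 0.0475). The lowest of the complex was the liver form Cox7a2, at 0.24, 0.47, -0.04, 0.09 and 0.09 in WT and 0.17, -0.02, -0.06, -0.01 and 0.08 in KO livers (-0.10, SE 0.08, adjusted p = 0.531), with WT 2 highest.

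The forms of complex IV subunits known from other tissues showed no call for genotype. Cox6a2 and Cox7a1 are the heart and skeletal muscle forms, Cox8b is a heart, muscle and brown fat form, Cox4i2 a lung form and Cox6b2 a testis form. Of the 5 tested, 3 were above 0 and 2 below, from -0.08 (Cox4i2) to 0.21 (Cox7a1), with a median of 0.01. Cox8b was above background on 4 arrays and Cox4i2 on 9, and the others on all 10. Cox7a1 stood at -0.40, -0.77, -0.42, -0.21 and -0.44 in WT and -0.30, 0.18, -0.01, -0.06 and -0.63 in KO livers, with the 3 female KO livers highest. Its log2 fold change was 0.21 (SE 0.11, adjusted p = 0.3), 0.29 in slide 1 males and 0.24 with slide as a block (adjusted p = 0.206). Cox6b2 differed by -0.07 (SE 0.06, adjusted p = 0.629), Cox6a2 by 0.06 (SE 0.08, adjusted p = 0.719) and Cox8b by 0.01 (SE 0.10, adjusted p = 0.971).

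Complex V makes ATP. Of its 15 genes 10 were above 0 and 5 below, with a median of 0.09, which turned to -0.03 with the scanner's own LogRatio and -0.05 with the Cy5 channel alone. Within slide 1 only 2 of 15 were above 0, and with slide as a block 6 of 15. The highest was Atp5a1, the alpha subunit of the catalytic head, at 1.45, 1.48, 1.20, 1.08 and 1.53 in WT and 1.47, 1.37, 1.41, 1.59 and 1.47 in KO livers (0.15, SE 0.08, adjusted p = 0.341), with WT 3 and WT 4 lowest and the rest mixed. A second probe of Atp5a1 gave 0.02. The lowest was Atp5g1, which with Atp5g2 and Atp5g3 encodes the membrane ring's c subunit, at 0.92, 0.84, 0.69, 0.94 and 0.51 in WT and 0.57, 0.71, 0.79, 0.89 and 0.43 in KO livers (-0.14, SE 0.10, adjusted p = 0.488). With slide as a block Atp5g1 differed by -0.29 (adjusted p = 0.0795), and in slide 1 males by -0.31. Atp5g2 stood at -0.06 and Atp5g3 at -0.03, but the second probe of Atp5g2 gave 0.12. Of the 20 members with more than 1 kept probe, 8 had probes of opposite sign, and the widest gap was 0.387 (Cox4nb).

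The single call for genotype among the members came from a gene that is not counted as a subunit. Atp5s fell: its ratios were 0.21, 0.20, 0.30, 0.54 and -0.04 in WT and -0.14, -0.05, -0.15, -0.44 and -0.16 in KO livers. Every KO liver lay below every WT liver, though KO 2 and WT 5 differed by little. The means were 0.24 ± 0.21 and -0.19 ± 0.15 (SD, n = 5 each) and the log2 fold change was -0.45 (SE 0.11, adjusted p = 0.0297, limma). Its probe lies on mm7 chromosome 12 (67685525 to 67685584). A second probe gave -0.34 and did not pass (adjusted p = 0.0732, in a fit over all kept probes). The difference was -0.35 in slide 1 males and -0.40 with slide as a block (adjusted p = 0.046). The call was lost without any single one of WT 1, WT 2, WT 3, WT 4, KO 1 or KO 3 (adjusted p = 0.0505 to 0.0812). It was also lost with the spots of uneven local background left in (-0.44, adjusted p = 0.107), against 0.0132 to 0.411 over all alternatives.

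Ndufaf1, which helps to assemble the membrane arm of complex I, is named after its values were seen. It stood at 1.51, 1.59, 1.62, 1.42 and 1.59 in WT and 1.29, 1.39, 1.33, 1.21 and 1.27 in KO livers, with every KO liver below every WT liver. The log2 fold change was -0.25 (SE 0.07, adjusted p = 0.0545), just outside the threshold, with -0.26 in slide 1 males and -0.22 with slide as a block (adjusted p = 0.145). Ndufaf1 passed under 5 of 26 alternatives, with adjusted p from 0.037 to 0.717 over all of them. It passed when WT 4 was left out (-0.29, adjusted p = 0.037) and with the Cy5 channel alone. The others were probes above background on all arrays, the mean of all kept probes and slide as a random block. Cox4nb had a difference of 0.23 (SE 0.07, adjusted p = 0.0872), but its second probe gave -0.16.

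**Figure D2:**
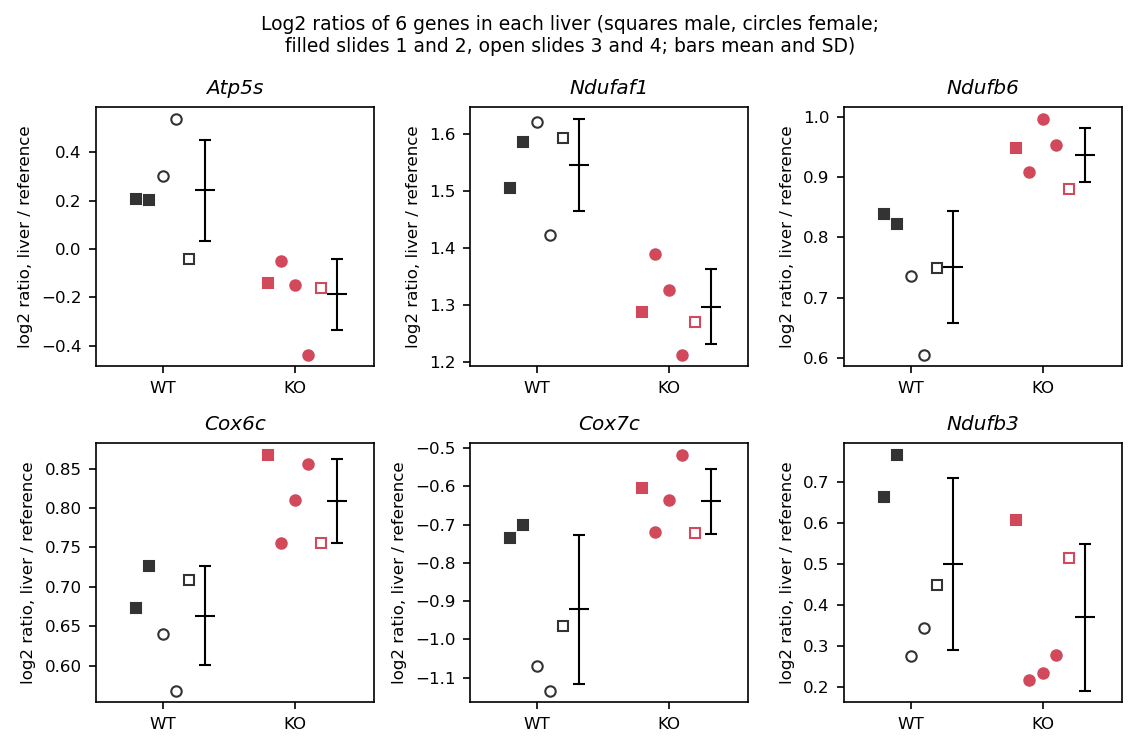
Log2 ratio of liver over reference (y axis) of Atp5s, Ndufaf1, Ndufb6, Cox6c, Cox7c and Ndufb3 in each of the 5 WT and 5 KO livers, with squares for males, circles for females, filled marks for slides 1 and 2, open marks for slides 3 and 4, and bars for the mean and SD. KO livers lie wholly below WT for Atp5s and Ndufaf1 and wholly above for Ndufb6 and Cox6c, Cox7c overlaps through WT 1 and WT 2, and Ndufb3 separates by sex.

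The subunits moved together with the array slide. Arrays came from 4 slides, with WT 1, WT 2, KO 1 and KO 2 on slide 1, KO 3 and KO 4 on slide 2, WT 3, WT 4 and KO 5 on slide 3, and WT 5 on slide 4. As deviations from each gene's own mean, the subunits' median was 0.09, 0.09, -0.10, -0.12 and -0.07 in WT. The KO livers gave 0.05, -0.01, 0.04, 0.08 and -0.05. All 4 livers of slides 3 and 4 lay below every liver of slides 1 and 2, whatever their genotype. Arrays of the first pair of slides were also brighter, with a median net Cy5 signal of 112 to 134 each, against 58.7 to 78.9 for the others. Of the 78 subunits 71 (91%) averaged higher on slides 1 and 2, beside 51.7% of all genes, a grouping of slides chosen after these values were seen.

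Livers of the same genotype and sex showed this difference without a change of group. The male WT livers of slide 1 (WT 1 and WT 2) both exceeded the male WT liver of slide 4 (WT 5) for 51 of 78 subunits (65.4%), beside 37.9% of all genes, with a median gap of 0.17, beside -0.01. The male KO liver of slide 1 (KO 1) exceeded that of slide 3 (KO 5) for 64 subunits (82.1%), beside 52.5%, with a median gap of 0.11, beside 0.01. Complex II was the exception, with 0 of 4 and 2 of 4 genes higher. What sets the slides apart was not tested, and with 1 or 2 livers on a side these gaps have no test.

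**Figure D3:**
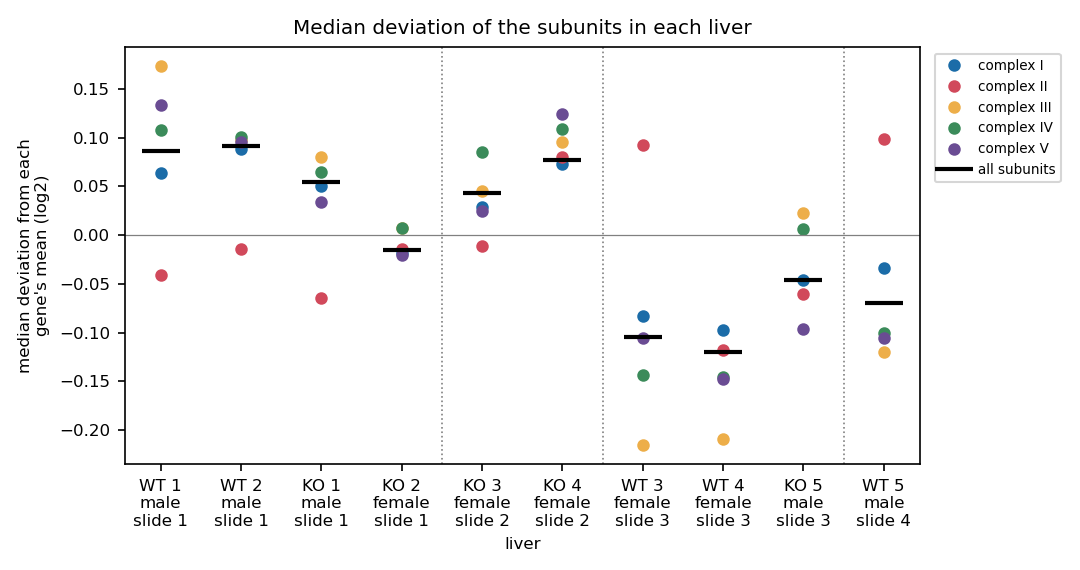
Median deviation of the subunits of each complex (coloured points) and of all 78 subunits (black bars) from each gene's mean, in log2 units (y axis), in each liver, ordered by slide (dotted lines between slides). The bars lie between -0.01 and 0.09 on slides 1 and 2 and between -0.12 and -0.05 on slides 3 and 4, in both genotypes.

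Since 4 of the 5 KO livers but only 2 of the 5 WT livers lay on slides 1 and 2, the genotype difference was also taken within slides. Slide 2 holds only KO 3 and KO 4 and slide 4 only WT 5, so with a slide block these livers do not inform the genotype difference. It rests on KO 1, KO 2 and KO 5 against WT 1 to WT 4, on slides 1 and 3. With slide as a block, 0 of 78 subunits passed (1205 of all genes, 6.37%). The smallest adjusted p was 0.0795 (Atp5g1) and the median was -0.02, with 35 of 78 above 0. Per complex the medians were -0.02 for I, -0.01 for II, 0.01 for III, -0.0003 for IV and -0.04 for V, and the subunits ran from -0.29 to 0.24. Within slide 1 the median was -0.06, with 21 of 78 above 0, though the slide holds female KO 2 beside 3 males, and in slide 1 males it was -0.04. Within slide 3, where the KO liver is male and both WT livers are female, genotype and sex cannot be told apart, and the median was 0.05, with 53 above 0. The direction of the median without a slide term thus did not hold within slide 1 or under the block.

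**Figure D4:**
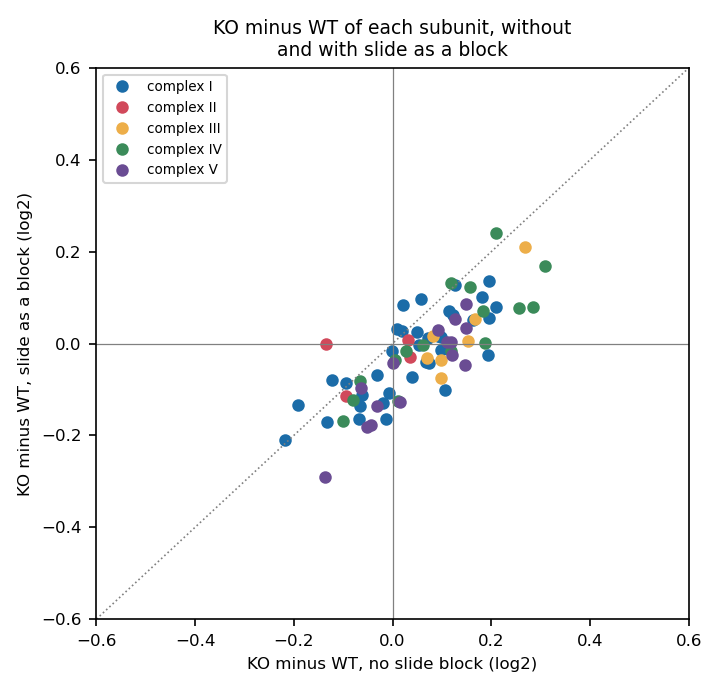
KO minus WT difference of each subunit on the log2 scale in the fit without a slide block (x axis) and with slide as a block (y axis), coloured by complex, with a dotted line of equality. Most points lie under the line: the median is 0.07 on the x axis and -0.02 on the y axis.

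In males and females the subunits differed in opposite directions on balance, without a call for the difference. The KO minus WT median was 0.16 in females (3 KO, 2 WT), with 63 of 78 subunits above 0 (80.8%, beside 51% of all genes), and -0.03 in males (2 KO, 3 WT), with 28 above 0 (35.9%, beside 46%). The interaction was called for 0 of 78 subunits (0.0317% of all genes), while 11 of 78 (14.1%) had an unadjusted p under 0.05, beside 12.5% of all genes, each with the higher difference in females. The median of the difference between the sexes was 0.20, beside 0.02 for all genes. In females the KO livers lay on slides 1 and 2 and the WT livers on slide 3, so genotype and slide cannot be told apart there.

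Cox7c and Ndufs5 rose in females taken alone, 2 of 78 subunits (2.56%), beside 4.45% of all genes. Cox7c differed by 0.48 in females (SE 0.11, adjusted p = 0.0352) and 0.14 in males (SE 0.11, adjusted p = 0.57), and Ndufs5 by 0.43 (SE 0.10, adjusted p = 0.0349) and -0.01 (SE 0.10, adjusted p = 0.975). Both female differences set livers of slides 1 and 2 against slide 3. Atp5s also fell in females (-0.63, SE 0.13, adjusted p = 0.0277), against -0.28 in males (SE 0.13, adjusted p = 0.333). In males no member passed, beside 2.38% of all genes.

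**Figure D5:**
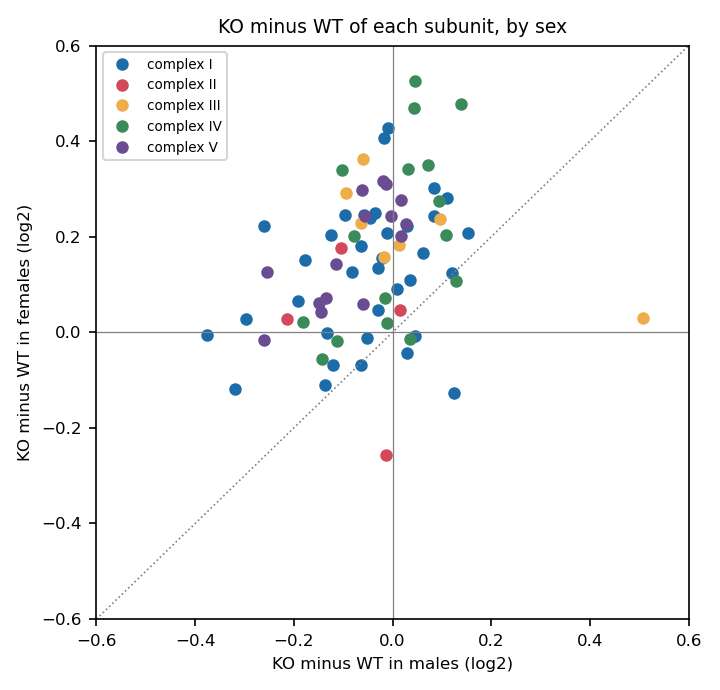
KO minus WT difference of each subunit on the log2 scale in males (x axis) and in females (y axis), coloured by complex, with a dotted line of equality. 63 of 78 points lie above 0 for females and 28 of 78 right of 0 for males. The point far to the right is Uqcrc2 (0.51 in males, 0.03 in females).

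The sexes themselves differed in 1 of the 78 subunits. Ndufb3, an accessory subunit of the membrane arm of complex I, was lower in females, with ratios of 0.66, 0.77 and 0.45 in male WT livers 1, 2 and 5, 0.61 and 0.52 in male KO livers 1 and 5, 0.28 and 0.34 in female WT livers 3 and 4, and 0.22, 0.23 and 0.28 in female KO livers 2 to 4. Every female liver lay below every male liver, in both genotypes. Within slide 1 the 1 female, KO 2, lay below male KO 1 of its own genotype. Female minus male was -0.32 (SE 0.07, adjusted p = 0.0151). The call was lost without KO 1 (-0.30, adjusted p = 0.0562) and with the spots of uneven local background left in (-0.26, adjusted p = 0.271). It passed under 17 of 25 alternatives, and among those that lost it were the Cy5 channel alone (-0.25, adjusted p = 0.128) and leaving out both male KO livers (-0.32, adjusted p = 0.11). Its genotype difference was -0.07 (SE 0.07, adjusted p = 0.667), and its probe lies on mm7 chromosome 1 (58846867 to 58846926).

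Against the rest of the array this was few calls for sex. Of the 78 subunits 1 was lower in females, beside 6.6% of all genes, and 0 were higher, while 11.6% of all genes passed in either direction. At an unadjusted p under 0.05 the count was 7 of 78 (8.97%), beside 24.8%. The subunits' median was -0.06, beside 0.003 for all genes. Cox7a1 was higher in females by 0.36 (SE 0.11) with an adjusted p of 0.0512, just outside the threshold. With slide as a fixed block 4 subunits passed for sex: Ndufb3, Cox7a1, Cox8b and Ndufa2. Cox7a1 also passed with slide as a random block, with the filter on all arrays, with the mean of probes, with the Cy5 channel alone, and without WT 1, WT 3 or WT 5.

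Of 5 subunits of the chain that the array lists under other names, 4 were tested and none passed for genotype. Ndufv3 of complex I differed by -0.22 (adjusted p = 0.132), and it passed for sex, lower in females by a difference of -0.30 (SE 0.08, adjusted p = 0.0282) with sexes that overlapped. For genotype the others were Uqcr10 of complex III at 0.03, and Atp5md (Usmg5) and Atp5mpl of complex V at 0.20 and 0.10. The electron carrier cytochrome c (Cycs) differed by 0.24 (SE 0.13, adjusted p = 0.315) and cytochrome c1 (Cyc1), the remaining nucleus-encoded redox subunit of complex III, by -0.02. Subunits of the mitochondrial genome were not analysed here.

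Genes that build or regulate the complexes showed calls in both directions, most of them lower in KO livers. Of 43 genes tested that were listed as assembly factors, Ndufaf1 among them, 2 rose (4.65%, beside 2.9% of all genes). In the same list 6 fell (14%, beside 3.09%), and the median was -0.12. Those that rose were Cox19 (0.45), a copper-handling factor of complex IV, and Atpif1 (0.32), the inhibitor of ATP synthase rather than an assembly factor. Atpif1 differed by 0.23 with slide as a block (adjusted p = 0.093), by 0.49 within slide 1 and by -0.28 within slide 3. Among those that fell were Ndufaf6 (-0.51) and Ndufaf3 (-0.37), which assemble complex I, and Cox11 (-0.44), which delivers copper to complex IV. Single livers decided most of these calls: Cox11 was lost without KO 1, and Ndufaf6 without each of 7 livers (all but WT 1, WT 2 and WT 5), Ndufaf3 without each of 8 (all but WT 4 and WT 5) and Atpif1 without each of 8 (all but WT 1 and KO 5). Of 78 mitochondrial ribosomal proteins 0 rose and 2 fell, a share of 2.56% near that of all genes (Mrps31, -0.36, and Mrps22, -0.29, the latter lost without each of 8 livers, all but WT 1 and WT 5). Their median was -0.08, and -0.11 with slide as a block. Among the 78, 17 (21.8%) were above 0, beside 49.3% of all genes. Every KO liver lay below every WT liver for 8 (10.3%, beside 3.07%) and above for 0 (beside 2.97%).

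The next lists are short, so that their counts stand on 1 or 2 genes each, beside 2.9% of all genes that rose and 3.09% that fell. Of 12 regulators of mitochondrial biogenesis 0 rose and 2 fell, with a median of -0.04: the coactivator Ppargc1a (-0.50, and -0.42 with slide as a block, adjusted p = 0.0511) and Tfb1m (-0.40), which methylates mitochondrial ribosomal RNA. Fumarate hydratase Fh1 fell (-0.50), the only call among 13 citric acid cycle genes, whose median was 0.02, and Pdss1 fell (-0.32), the only call among 8 genes of coenzyme Q synthesis, whose median was -0.14. Of 7 other genes that feed electrons into the chain, Gpd2 rose (0.41) and Prodh fell (-0.73), with a median of 0.05. The calls of Ppargc1a and Fh1 were lost without WT 3, that of Gpd2 without KO 1, that of Pdss1 without KO 1, KO 4 or WT 3, and that of Tfb1m without each of 7 livers (all but KO 2, WT 4 and WT 5). Of the 16 called genes in these lists, all kept their sign with slide as a block and 7 passed there, and 4 (Cox19, Taco1, Prodh and Mrps31) passed without any single liver, although these 4 were lost in 5 to 7 of 16 other alternatives. These lists were chosen with earlier results of these data known, so the counts are descriptions.

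The subunits with the NRF1 letters in their promoter window did not stand out in KO livers. Their median log2 fold change was 0.04 (17 genes, from -0.13 to 0.29), and that of the 48 tested without the letters was 0.06 (from -0.22 to 0.31). With any of the 4 motifs the median was 0.05 (25 genes) and without any also 0.05 (40 genes). Ndufs5 with the NRF1 letters and Cox7c with none, both printed above, had the highest difference of their complexes in the fit without slide.

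The tissue label was checked against markers of hepatocytes and of other cells. All 5 hepatocyte markers on the array were well above background in every liver, with Alb at 6.03 ± 0.41 in WT and 6.14 ± 0.17 in KO livers (SD, n = 5 each), and none changed. The brown fat gene Ucp1 and the adipocyte genes Adipoq and Lep were not well above background on any array. The adipocyte gene Plin1 was above background on 6 arrays and did not pass. Of 8 muscle markers 5 were tested and none changed. Myh1 was above background on 9 arrays, Tnnt3 on 8, Actn3 on 7, Ckm on 6 and Myh4 on 4. Mb, Myh6 and Myl1 were above background on at most 2 arrays. The brown fat marker Cidea was above background on 8 arrays and did not pass. The endothelial gene Pecam1 rose by 0.26 (SE 0.07, adjusted p = 0.046), the only one of the cell type markers to pass, and the other endothelial markers Stab2 and Cdh5 stood at 0.19 and 0.52 without passing. None of 4 Kupffer, 3 stellate, 3 bile duct, 2 lymphocyte and 2 germ cell markers passed. The germ cell markers Prm1 and Tnp1 were above background on all 10 arrays. The part of endothelial cells in the members' values was not tested, and in whole liver fewer cells of a type and less RNA per cell cannot be told apart.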

How the data were processed

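RNA of 10 livers was measured against a common reference, 1 array per liver. The deposited spot means and local background medians are, per the file headers, intensity values from Agilent Feature Extraction (10.7.3.1 in the headers, 10.7 in the submitters' processing notes), and the deposited LogRatio is a log10 ratio of Cy5 over Cy3. The authors' value table holds log2 ratios, with the normalisation not given in the sources. Column medians were 0.0078 to 0.023. Over all probes the correlation of each column with the same array here was 0.9994 to 0.9996 and the slope 0.998 to 1, so direction and scale matched.

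Between 169 and 291 spots an array carried outlier flags and were dropped before background correction. Flags on the local background were added to those on the spot after seeing bright local backgrounds on WT 5, and without them far fewer genes pass, as given under the dependence on processing. Signals were corrected with normexp (offset 50) and log2 ratios normalised by loess within arrays, with control spots at weight 0. A probe was kept where 4 or more of the 10 arrays had it well above background in Cy5. Of the 41174 probes, RefSeq accessions named 22951, its symbols 6659 and its synonyms 3109. The remaining 8455 have the name in the files. Probe coordinates are those of the files (mm7), for which no annotation was used here.

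Models of genotype and sex were fitted with lmFit and eBayes (limma 3.58.1, R 4.3.3), also with their interaction, with Benjamini-Hochberg adjustment over 18912 genes and a threshold of 0.05. The procedure was tested on simulated data. Genes were named where they passed, had the highest or lowest difference of their complex or are a tissue form, and of other lists at most 3 called genes in each direction. Taco1, the subunits under other names, Cycs, Cyc1, Atp5g2, Atp5g3, Sdhb, Sdhd and genes said to be named after their values were seen fall outside that rule. Livers come from separate mice per the series design. Replicate numbers were not treated as pairs. Residuals of same-numbered livers after genotype and sex correlated at -0.31 to 0.25, and deviations from the group means at -0.43 to 0.53. The deviations still carry sex, and residuals of a fit to so few livers are not independent. Neither range therefore settles whether the numbers pair livers. The members and gene lists were chosen with earlier results of these data known. Array number limits the precision of all values.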

Additional observations from a re-analysis of the deposited data

Results flagged for a closer look

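Among 52 groups of 5 livers checked, WT and KO for each named gene and for the medians of the complexes, 1 liver stood far from the others of its group. Uqcrc2 had a log2 ratio of 1.83 in KO 5, against 1.35 in the next highest KO liver, a gap of 0.814 of the group's whole range. Chance alone marks about 1 in 20 such groups. Without KO 5 the KO minus WT difference of Uqcrc2 was 0.10. No subunit's genotype difference differed between the sexes by the interaction test.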

How the results depend on the processing

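The calls among members were few and moved easily. For genotype 1 member passed (Atp5s): the count was 0 with outlier spots removed after normexp, with spots of uneven local background left in (an alternative added after seeing the data), with median centring, without a sex term, with a replicate block and on slides 1 and 2 only, 2 with probes above background on all arrays, with the mean of all kept probes and with slide as a random block, 3 with the Cy5 channel alone and without both male KO livers, and 0 to 2 without single livers. No subunit passed except Cox7c and Ndufs5 (2) without both male KO livers and Cox7c without KO 5 (0 to 1 without single livers). Leaving out both male KO livers leaves the genotype difference to the females alone, as given above, where genotype and slide cannot be told apart. On slides 1 and 2 only it is that of slide 1 males, with 1 KO liver. For sex the count of 1 became 0 with outlier spots removed after normexp, background-marked spots left in, median centring, the replicate block and slides 1 and 2 only, 2 with the filter on all arrays, the mean of probes and the random slide block, 4 with slide as a fixed block, and 0 to 2 without single livers. With the Cy5 channel alone and without both male KO livers the sex count stayed at 1, but the gene was Cox7a1 and Uqcrc1 in place of Ndufb3. The interaction gave 0 under every alternative that could be fitted. Of all genes, 1134 passed, against 344 with background-marked spots left in, and 339, 281, 623, 308 and 255 with outlier spots removed after normexp, median centring, no sex term, the replicate block and slides 1 and 2 only. Without single livers it was 600 to 1189, lowest without WT 3 (600), KO 1 (601) and KO 4 (669).

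The members' genotype median of 0.07 became -0.016 with slide as a fixed block, -0.046 on slides 1 and 2 only and 0.16 without both male KO livers (0.038 to 0.11 without single livers). In the same order where they moved, complex I became -0.040 (slides 1 and 2) and 0.14 (without male KO), complex III -0.059 and 0.23, complex IV -0.00026 (slide block) and -0.0036 (slides 1 and 2), and complex V -0.033 (LogRatio), -0.046 (Cy5 alone), -0.042 (slide block), -0.062 (slides 1 and 2) and 0.20 (without male KO). Without single livers the complexes ran from 0.030 to 0.095 (I), -0.082 to 0.00035 (II), 0.068 to 0.15 (III), 0.092 to 0.16 (IV) and 0.016 to 0.15 (V). The members' sex median of -0.06 became -0.16 with the replicate block and -0.15 without both male KO livers (-0.11 to -0.024 without single livers). The genotype medians on slides 1 and 2 only are those of slide 1 males, and those without both male KO livers are those of females. The cause of these shifts was not tested. The replicate numbers were not treated as pairs, and the block on them gave a members' genotype median of 0.083. The alternatives of subunits alone, of medians per complex and of Ndufb6, Cox6c and Ndufaf1 were chosen after seeing the data. Signal over background limits Cox8b and Cox4i2, which were not well above background on every array.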
